A study of Mus musculus with 35 samples.

Results

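Transcripts of the epidermal kallikreins and of their inhibitor were followed across mouse skin wounds. The set holds 8 genes, Klk5, Klk6, Klk7, Klk8, Klk10, Klk11, Klk14 and Spink5, taken by gene symbol as proteases of the outer epidermis and their inhibitor, out of 22830 symbols in each of the 2 deposited count tables. All 8 were found in both tables, and all 8 passed the filter on low counts in each comparison.

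Bulk RNA from 35 wounds was sequenced. The Col5a1CKO animals model classical Ehlers-Danlos syndrome and carry a tamoxifen-inducible, collagen enhancer-driven Cre in fibroblasts (Col1a2CreERT) with both Col5a1 alleles floxed, and the controls, called WT, are Cre-negative littermates with the same floxed alleles. All animals received tamoxifen around a full thickness wound of the back. The first table covered day 14 with 7 wounds of each genotype and 3 more Col5a1CKO wounds injected with cultured skin fibroblasts from WT animals, and day 19 with 3 wounds of each genotype. The second table held day 14 wounds in groups of 4, from WT given vehicle, Col5a1CKO given vehicle and Col5a1CKO given cilengitide, an inhibitor of the integrin αvβ3, injected daily from the day before wounding. GEO's treatment field lists WT fibroblasts for the day 19 Col5a1CKO wounds while their titles do not, and the titles were followed, so the treatment of those 3 wounds is uncertain. By the study's methods, PBS was the control injection for mice that got no fibroblasts, while the labels give the first table's controls as wounded. The methods also describe the replicates as biologically separate, which the labels do not state.

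At day 14 Col5a1, the targeted gene, lay between 346.6 and 2386 CPM in the WT group. The Col5a1CKO group lay between 170.0 and 663.3 CPM, which overlapped. At day 19 it had 515.0 to 5425 and 617.3 to 1092 CPM, with vehicle 448.7 to 2657 and 252.2 to 1319 CPM, and it was not called in any comparison. CPM, the counts scaled to a common library size, followed edgeR's TMM normalization. Over the rows kept per symbol, each library of the first table held between 15043531 and 35700325 counts (20130530 to 49085163 over all rows). Each of the cilengitide experiment held between 51211600 and 68266760 in the kept rows. By the level of genes rich or poor in GC, the libraries of the first table fell into a lower set (WT a to d and Col5a1CKO a to e at day 14) and an upper set (all others), and results are also given within these sets. Within the upper set at day 14, Y-linked RNA exceeded Xist in all 3 WT wounds, while Xist was the higher in both Col5a1CKO wounds without fibroblasts and in all 3 fibroblast-injected wounds, so sex and genotype cannot be told apart there. At day 19 Xist was the higher in 2 of 3 WT wounds and in all 3 Col5a1CKO wounds. A wound with fewer keratinocytes and a wound with less RNA per keratinocyte cannot be told apart in bulk RNA.

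The kallikreins are secreted serine proteases of the upper epidermis. They are released into the space between the cells of the cornified layer, activate one another and cut the desmosomal proteins that hold these cells together, so that the surface is shed. Klk5 is placed early in this cascade and can activate itself, Klk7 and Klk14. Spink5 encodes LEKTI, a many-domain inhibitor that holds Klk5, Klk7 and Klk14 in check, and its loss in humans causes Netherton syndrome, a disease of excess shedding and barrier failure.

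In mouse build NCBI37/mm9 the 7 kallikrein genes lie on the plus strand of chromosome 7, in the order Klk14 (50945788 to 50950906), Klk11 (51029987 to 51034628), Klk10 (51036424 to 51040780), Klk8 (51052947 to 51059192), Klk7 (51066814 to 51071729), Klk6 (51079869 to 51087397) and Klk5 (51097639 to 51106551). Klk10, Klk7 and Klk5 are set against one another within wounds in what follows, so the 250 bases before the RefSeq start of Klk10, Klk7 and Klk5 are shown. The sequences are from RefSeq (table build GRCm38.p6) and each had 1 exact match in NCBI37/mm9, upstream of the first exon and on the plus strand. The RefSeq start of Klk7 lies upstream of the gene start given above, which like the other gene positions is from the GENCODE annotation. Capitals mark the CACCC box, the letters CACCC on either strand.
Klk10, chr7:51036174-51036423: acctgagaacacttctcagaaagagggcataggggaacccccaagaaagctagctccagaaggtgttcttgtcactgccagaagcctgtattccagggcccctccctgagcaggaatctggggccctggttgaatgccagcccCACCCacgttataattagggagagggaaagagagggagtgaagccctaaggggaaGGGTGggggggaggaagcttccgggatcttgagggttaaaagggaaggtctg
Klk7, chr7:51066414-51066663: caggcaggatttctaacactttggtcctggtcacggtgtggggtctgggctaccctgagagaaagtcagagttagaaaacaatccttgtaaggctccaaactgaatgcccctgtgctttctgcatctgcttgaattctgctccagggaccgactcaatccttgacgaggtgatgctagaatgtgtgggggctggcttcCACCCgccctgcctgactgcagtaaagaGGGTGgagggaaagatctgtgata
Klk5, chr7:51097389-51097638: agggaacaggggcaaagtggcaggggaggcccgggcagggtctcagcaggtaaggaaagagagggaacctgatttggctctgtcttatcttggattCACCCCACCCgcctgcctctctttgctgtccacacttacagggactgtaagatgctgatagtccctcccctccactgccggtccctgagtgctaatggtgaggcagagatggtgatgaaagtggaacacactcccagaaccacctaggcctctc
Each of the 3 windows held 2 CACCC boxes, and those of Klk5 stood end to end. Across 32851 RefSeq promoter windows of the same length, 52.0% held at least 1. The 7 kallikreins had 9 windows in the RefSeq table. None of the 9 held TGANTCA, the AP-1 motif, or TATAAA, the TATA box, letters found in 6.75% and 12.4% of all windows. A match is a description of letters and not a site of binding.

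Spink5 lies apart from the cluster, on chromosome 18 (44122889 to 44182155, plus strand). In WT wounds at day 14 the members were expressed at widely different levels. Per length of transcript, as RPKM (CPM per kilobase, from library totals without TMM), Klk7 stood first with a median of 812.8 RPKM (595.7 to 902.3, n = 7), followed by Spink5 with 551.4 RPKM (280.4 to 719.5), whose range overlapped. The place of Spink5 differed by library set, with 551.4 to 719.5 RPKM in the lower set and 280.4 to 392.1 RPKM in the upper, where it was below Klk8 in all 3 WT wounds and below Klk5 in replicates e and f. Klk8 (224.6 RPKM), Klk6 (136.7 RPKM) and Klk5 (114.3 RPKM) came next, and their ranges overlapped one another. Klk11 (51.58 RPKM), Klk10 (17.13 RPKM) and Klk14 (5.87 RPKM) had the lowest medians, and each range overlapped that of its neighbour. In WT wounds at day 19, Klk7 was again first (161.6 RPKM) and Klk14 last (7.189 RPKM). In the fibroblast-injected Col5a1CKO wounds the order of medians differed, with Klk6 (375.6 RPKM) and Klk7 (348.0 RPKM) overlapping at the top and Klk10 at 136.7 RPKM, after Spink5 (149.8 RPKM). All injected wounds were in the upper set, and in WT replicate g of that set the order was Klk7, Klk6 (496.9 RPKM), Klk8 and Spink5, with Klk10 at 196.7 RPKM.

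**Figure D1:**
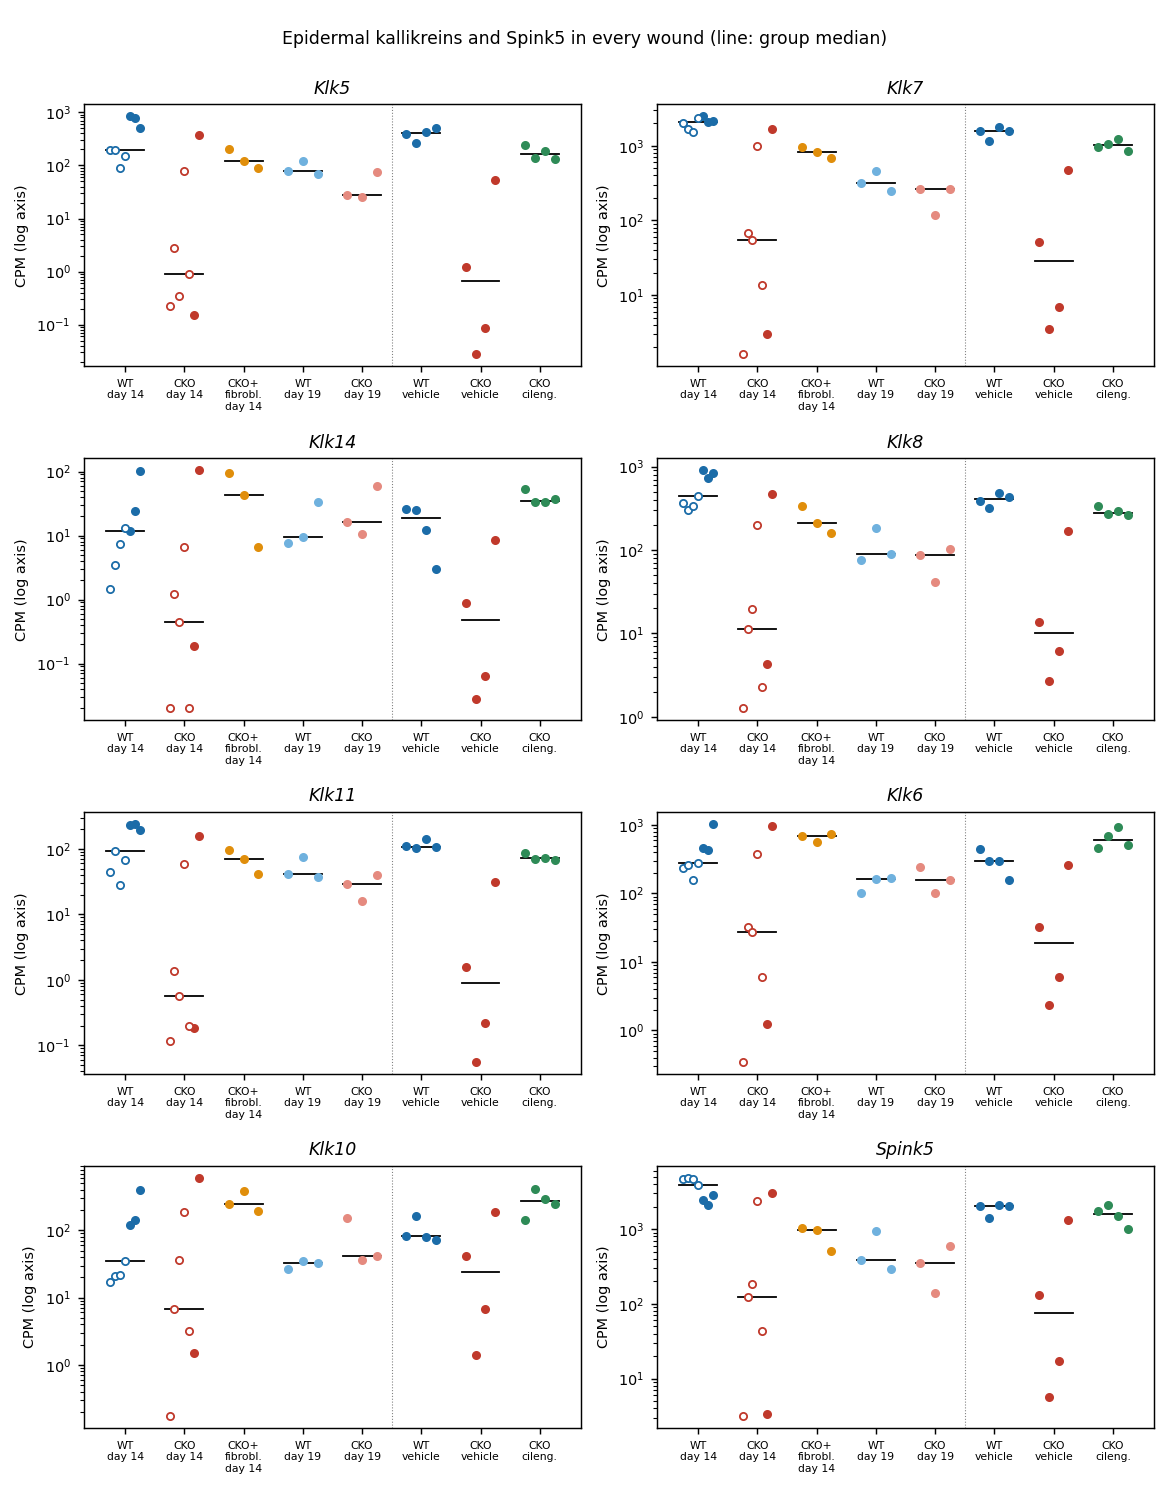
CPM of each of the 8 members (log axis) in each of the 35 wounds by group, with open circles for the lower library set, filled circles for all others, lines for group medians, and the dotted line parting the 2 tables. Values of 0 (Klk14 in Col5a1CKO replicates a and e) are drawn at 0.02 CPM. At day 14 in the first table the highest value exceeds the lowest by 374.7 times (Klk8) to 3479 times (Klk10) among Col5a1CKO wounds, Klk14 with its values of 0 aside, and by 1.63 times (Klk7) to 69.4 times (Klk14) among WT wounds.

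The comparison of WT and Col5a1CKO wounds at day 14 asked what the loss of type V collagen in fibroblasts changed in the healing skin. The Col5a1CKO wounds ranged from near 0 to the level of WT for each member, while the spread of the WT wounds was narrow for Klk7, Spink5 and Klk8 (highest over lowest 1.63, 2.28 and 3.01) and wide for Klk10 and Klk14 (23.9 and 69.4). Klk7, the chymotrypsin-like enzyme that cuts corneodesmosin, had 1523, 2111 and 2477 CPM as the lowest, median and highest of 7 WT wounds, and 1.607, 55.08 and 1695 CPM in 7 Col5a1CKO wounds. Replicates d and g, with 1006 and 1695 CPM, were the highest, of which only g was within the WT range, and the other 5 Col5a1CKO wounds were at 68.24 CPM or lower. Spink5 had 2110, 3943 and 4809 CPM in WT and 3.156, 121.8 and 2999 CPM in Col5a1CKO wounds, and the same 2 wounds were the highest.

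Klk5, the trypsin-like initiator, had 87.83, 198.6 and 841.1 CPM as lowest, median and highest in WT and 0.155, 0.90 and 381.2 CPM in Col5a1CKO wounds. The lowest Col5a1CKO values rest on few reads, with 4, 8 and 5 counts of Klk5 in replicates a, c and f. Klk14, another trypsin-like enzyme of the cascade, was at 1.479 to 102.6 CPM in the WT group and had 0 counts in Col5a1CKO replicates a and e, which allows up to 0.1722 and 0.1499 CPM, the value of 3 counts on the same scale, in counting error alone. The Col5a1CKO wounds reached 104.6 CPM in replicate g, so the groups overlapped for Klk14 as well. Klk8, a trypsin-like protease of the upper epidermis, had a WT range of 300.0 to 904.0 CPM and a Col5a1CKO range of 1.263 to 473.3 CPM, where only replicate g reached the WT wounds. Klk11, also trypsin-like, had a WT range of 27.94 to 238.0 CPM and a Col5a1CKO range of 0.115 to 157.5 CPM, where replicates d and g did.

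None of the 8 members was called in this comparison (edgeR adjusted p 0.173 to 0.943), against 5.57% of all 14367 genes called higher and 2.71% called lower. A call needed an adjusted p under 0.05 and at least a 2-fold change. At an unadjusted p under 0.05 there was 1 member, Klk8, and DESeq2 called 2, Klk8 (log2 fold change -2.50, SE 0.95, adjusted p = 0.0464) and Klk14 (-3.41, SE 1.12, adjusted p = 0.0181), beside 8.27% of genes higher and 4.85% lower. DESeq2 without its replacement and filter of outlying counts gave Klk14 a log2 fold change of -0.57 (SE 1.39, adjusted p = 0.822). The edgeR log2 fold change was negative for 7 of 8 members, with a median of -2.07 beside -0.03 over all genes tested. For Klk7 it was -2.31 (SE 1.18, adjusted p = 0.222) and for Klk5 -2.52 (SE 1.48, adjusted p = 0.287). The groups overlapped for all 8 members, and over all genes 2.31% were higher and 1.72% lower with no overlap. Without Col5a1CKO replicate g, 2 members were called lower, Klk5 (-4.81, SE 1.49, adjusted p = 0.0429) and Klk8 (-3.82, SE 1.08, adjusted p = 0.0302), beside 6.83% of all genes lower and 6.38% higher. Within the lower library set (4 WT, 5 Col5a1CKO) and the upper set (3 WT, 2 Col5a1CKO) no member was called, beside 3.68% and 8.82% of genes higher and 2.92% and 0.411% lower. Klk7 there had log2 fold changes of -3.06 (SE 1.53, adjusted p = 0.244) and -1.31 (SE 2.03, adjusted p = 0.643).

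**Figure D2:**
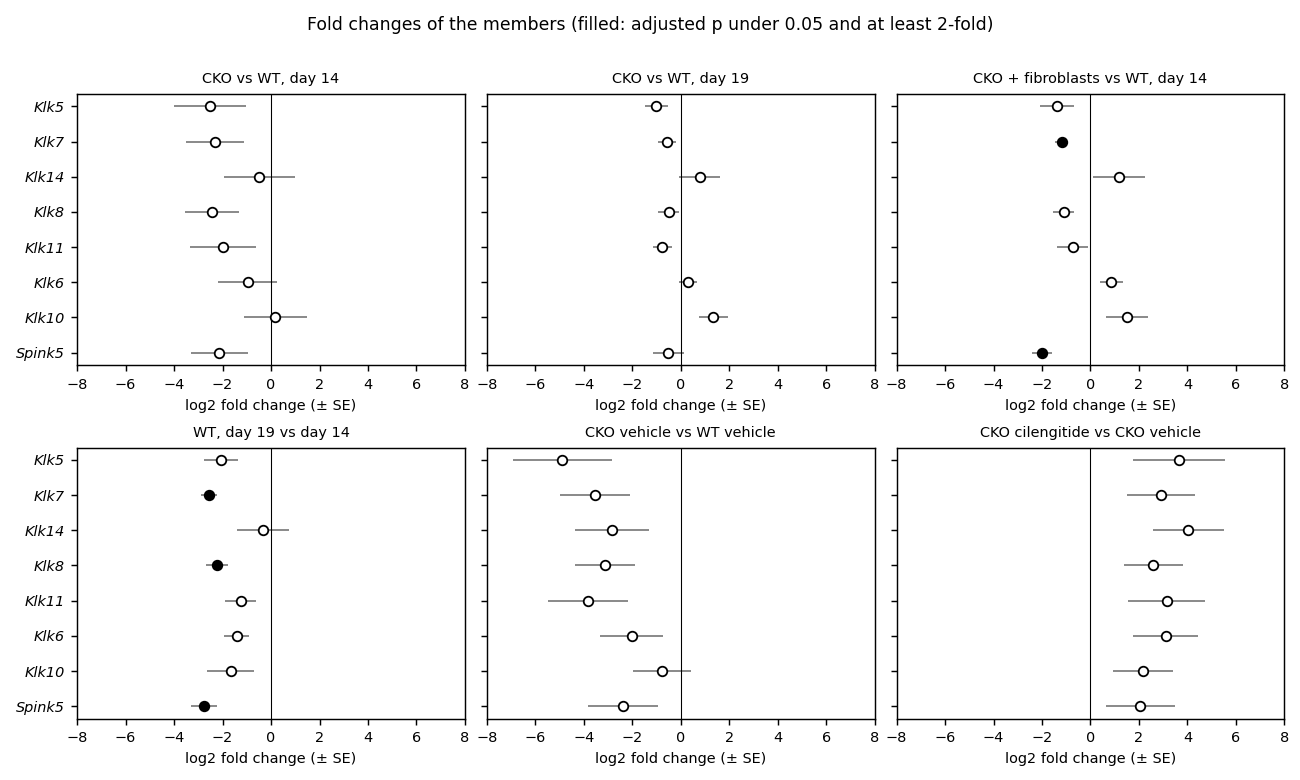
Log2 fold change (x axis) with its standard error for each member in 6 comparisons, from edgeR fits across all genes, with filled circles for called members. Calls stand in the comparisons of fibroblast-injected with WT wounds (Klk7 and Spink5) and of WT wounds at day 19 with day 14 (Klk7, Klk8 and Spink5), and the error bars of the Col5a1CKO comparisons at day 14 are wide.

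The log2 fold changes of Klk10, Klk14 and Klk6 were the nearest to 0. Klk10, a kallikrein first described in normal breast epithelial cells, had 16.92, 34.81 and 404.8 CPM as lowest, median and highest in WT and 0.172, 6.817 and 599.1 CPM in Col5a1CKO wounds, with a log2 fold change of 0.18 (SE 1.30, adjusted p = 0.943). Klk6, a trypsin-like protease also found in the nervous system, spanned 157.2 to 1026 CPM in the WT group and 0.344 to 972.4 CPM in the Col5a1CKO group (log2 fold change -0.96, SE 1.22, adjusted p = 0.646). The make-up of the kallikrein counts, the percent of the summed counts of the 7 kallikreins that each took, was then described within each wound. No test was made on these shares or on the ratios that follow.

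Klk7 took the largest share in 33 of 35 wounds, the exceptions being Col5a1CKO replicate f at day 14 (Klk8, 40.9%) and fibroblast-injected replicate c (Klk6, 38.7%). The share of Klk10 had a median of 1.04% (0.587% to 7.75%) among WT and 11.9% (4.62% to 25.6%) among Col5a1CKO wounds at day 14. It differed between the library sets also among WT wounds, at 0.587% to 1.04% in the lower and 2.36% to 7.75% in the upper set. The Col5a1CKO wounds had 4.62% to 25.6% in the lower and 13.7% and 14.1% in the upper set, above the WT wounds of the same set. It was 10.04% (9.54% to 17.4%) in the 3 fibroblast-injected wounds, which all lay above the WT range. For Klk6 the range was 7.28% to 19.6% in the WT group and 9.23% to 26.0% in the Col5a1CKO group, and the median was 26.3% in fibroblast-injected wounds, all above the WT range. For Klk5 the median share was 7.73% among WT and 3.41% among Col5a1CKO wounds, and the ranges overlapped. At day 19 the share of Klk10 ran from 3.37% to 4.85% among WT and from 5.70% to 18.6% among Col5a1CKO wounds. In the cilengitide experiment it ran from 2.50% to 7.05% with WT vehicle, 13.9% to 29.4% with Col5a1CKO vehicle and 6.26% to 15.4% with cilengitide. At day 19 and in the second table, each Col5a1CKO wound without cilengitide was above each WT wound of that day or table. At day 14 the groups without fibroblasts overlapped when both library sets were pooled. A share also rises when the other kallikreins fall, so a higher share is not a higher level. No background over all genes was made for the shares. Relative to Klk5 alone, 30.4% of all genes at day 19 and 92.0% with vehicle were higher in Col5a1CKO with no overlap.

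**Figure D3:**
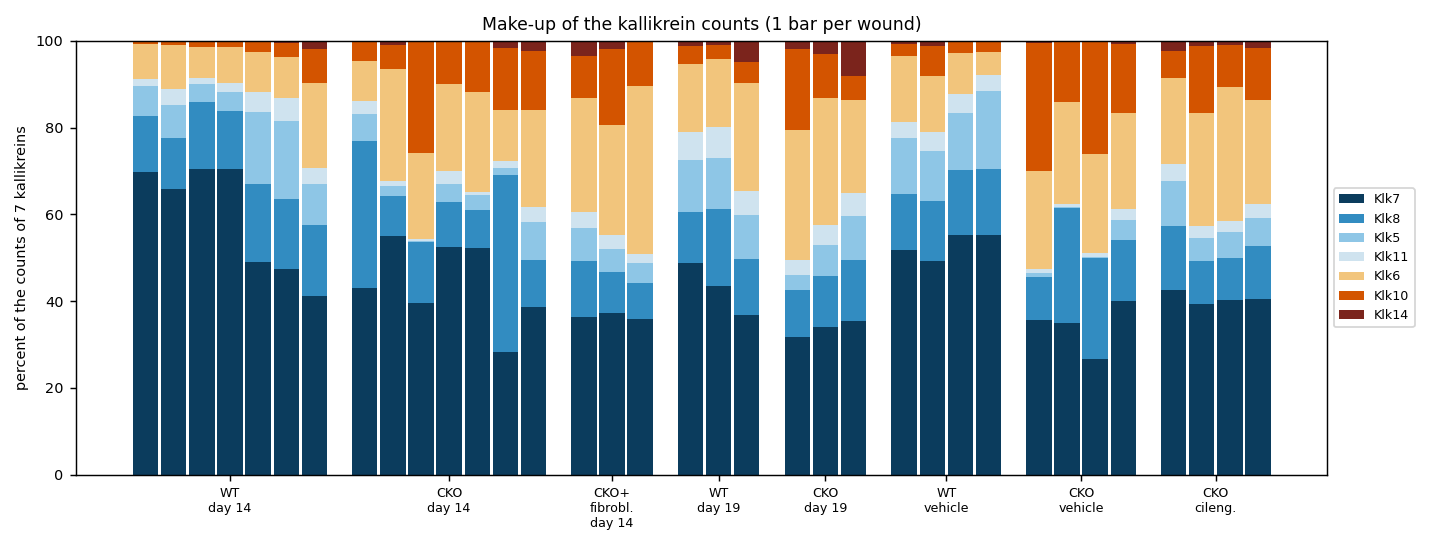
Percent of the summed counts of the 7 kallikreins taken by each gene, with 1 bar per wound in groups. Klk10 had a median of 11.9% in Col5a1CKO wounds at day 14 against 1.04% in WT, where it took 0.587% to 1.04% in the lower and 2.36% to 7.75% in the upper library set, and the shares of Klk6 overlapped between these groups.

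Relative to Krt5 + Krt14, the keratins of basal keratinocytes, Klk10 separated the genotypes at day 14. The ratio of CPM was 0.00202, 0.00128, 0.0013, 0.002, 0.00515, 0.0091 and 0.00896 in WT replicates a to g. In Col5a1CKO replicates a to g it was 0.0136, 0.0111, 0.02, 0.0107, 0.0157, 0.0251 and 0.0268. Each Col5a1CKO wound was above each WT wound, including replicates d and g with their high kallikrein levels, and the order held within both library sets. Klk10 was the single member whose ratio did not overlap, and 1.71% of all genes tested were higher without overlap in this ratio. In fibroblast-injected wounds it was 0.0193, 0.0204 and 0.025, and Klk10 and Klk6 were higher than in each WT wound, as were 8.85% of all genes. The value in Col5a1CKO replicate a rests on 3 counts of Klk10.

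The same ratio at day 19 was 0.00541, 0.0027 and 0.00573 among WT and 0.0208, 0.0106 and 0.00708 among Col5a1CKO wounds, where 10.2% of all genes were higher with no overlap. Relative to Krt10, a keratin of differentiating cells, Klk10 overlapped at day 19 (0.0039 to 0.0114 and 0.00642 to 0.202) and was higher with no overlap at day 14, as were 5.86% of all genes. The ratio to Krt5 + Krt14 in the second table was 0.00403 to 0.00895 with WT vehicle, 0.0189 to 0.0451 with Col5a1CKO vehicle and 0.00617 to 0.0158 with cilengitide. The 4 vehicle wounds of Col5a1CKO were above all WT wounds, as were 54.8% of all genes in this ratio, and above all cilengitide wounds, where 75.1% of all genes were lower with no overlap. The cilengitide range overlapped the WT range. Klk5 (0.000575 to 0.00538 against 0.0147 to 0.0458) and Klk11 (0.00107 to 0.00311 against 0.0054 to 0.00936) were lower in this ratio in each Col5a1CKO vehicle wound than in each WT vehicle wound, beside 1.32% of all genes. With cilengitide, Klk5, Klk7, Klk8 and Klk11 were lower than in each WT wound, beside 14.1% of all genes, and Klk14 was higher than in each Col5a1CKO vehicle wound, beside 0.463%, while Spink5 was lower. Krt5 and Krt14 themselves differed widely, with Krt14 at day 14 between 6964 and 35870 CPM in the WT group and between 9.354 and 18460 CPM in the Col5a1CKO group, so a higher ratio is not a higher level.

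Against Klk5, Klk10 at day 14 had a ratio of 0.0856 to 0.811 among WT and 0.75 to 102.0 among Col5a1CKO wounds, and these ranges overlapped. In fibroblast-injected wounds it was 1.23 to 3.20, above each WT wound, where 15.7% of all genes were. With WT vehicle it was 0.14 to 0.61, with Col5a1CKO vehicle 3.51 to 78.5 and with cilengitide 0.602 to 2.93. In Col5a1CKO vehicle replicate 2, 102 counts of Klk10 stood beside 2 of Klk5, a ratio with a 95% exact interval of 13.8 to 427.0, in counting error alone. Relative to Klk5, 92.0% of all genes were higher with Col5a1CKO vehicle than in each WT wound.

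**Figure D4:**
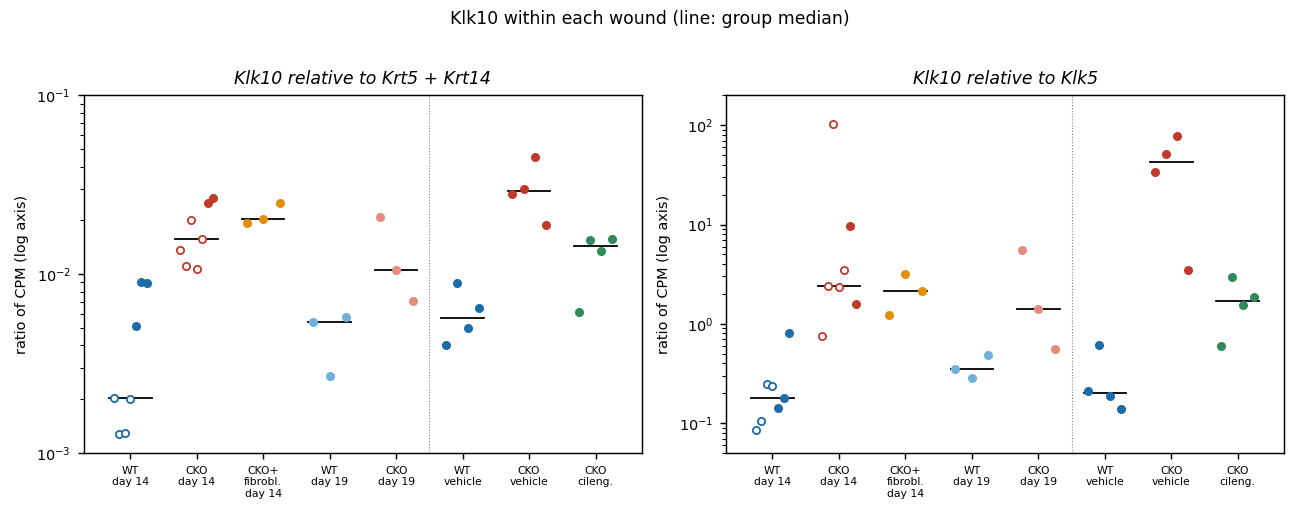
Ratio of Klk10 CPM to the summed CPM of Krt5 and Krt14 (left) and to Klk5 CPM (right) in each wound (log axes), with open circles for the lower library set and lines for group medians. In the left panel the Col5a1CKO wounds without cilengitide lie above the WT wounds at day 14, at day 19 and with vehicle.

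At day 19 the genotypes were compared again, later in healing. Klk10 had 27.02, 35.11 and 33.04 CPM in WT replicates a to c and 152.0, 35.96 and 41.81 CPM in Col5a1CKO wounds. It was the single member whose groups did not overlap, with replicate a of Col5a1CKO well above the rest and replicate b just above the highest WT wound. Of all genes 16.4% were higher and 18.4% lower with no overlap. Klk7 had 312.9, 452.2 and 249.6 CPM in WT and 260.2, 119.8 and 260.3 CPM in Col5a1CKO wounds, which overlapped. None of the 8 members was called and none had an unadjusted p under 0.05 (edgeR adjusted p 0.227 to 0.648). Of all genes 0.0198% were called higher and 0.0% lower. DESeq2 called none of the 8 either, beside 3.73% of all genes higher and 4.13% lower. The log2 fold change of Klk10 was 1.35 (SE 0.59, adjusted p = 0.227) and that of Klk5 -1.004 (SE 0.46, adjusted p = 0.240). The difference between the genotype effects of the 2 days, tested as an interaction, passed for none of the 8 members and for 0.0% of all genes. The edgeR adjusted p was 0.9999 for each member, and none had an unadjusted p under 0.05. DESeq2 called no member in the interaction, beside 0.123% of all genes higher and 0.0922% lower.

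Between day 14 and day 19, 3 of 8 members fell in WT wounds. This comparison shares its day 14 wounds with those of genotype and of fibroblasts. Klk7 went from 1523 to 2477 CPM at day 14 to 312.9, 452.2 and 249.6 CPM at day 19, a log2 fold change of -2.58 (SE 0.33, adjusted p = 0.00275). Klk8 (-2.23, SE 0.45, adjusted p = 0.0172) and Spink5 (-2.77, SE 0.52, adjusted p = 0.0122) were called lower as well, and for these 3 genes no day 19 wound reached the lowest day 14 wound. These 3 of 8 stand beside 4.25% of all genes called lower and 1.5% called higher, and the 3 without overlap beside 11.8% of genes lower and 7.55% higher. All 8 log2 fold changes were negative, with a median of -1.88. In the upper set Y-linked RNA was the higher in all 3 WT wounds of day 14 but in 1 of 3 of day 19, so sex differs in part with day. All day 19 libraries were in the upper set. Within it (3 against 3), 7 of 8 members were called lower, beside 10.1% of all genes (14.2% higher), and Klk14 was not (-1.28, SE 0.97, adjusted p = 0.325). In these 7 the log2 fold changes ran from -1.998 for Klk11 (SE 0.26, adjusted p = 0.00590) to -2.89 for Klk5 (SE 0.31, adjusted p = 0.00416). Without WT day 19 replicate a, or without replicate c, Klk7 was the single member called. The summed CPM of 6 markers of differentiating keratinocytes was 20310 to 147700 at day 14 and 9897 to 17470 at day 19, with no overlap, with 2 of 6 called lower and a median log2 fold change of -2.08. None of 5 basal keratinocyte markers was called, and 1 of 2 endothelial markers was called higher. The part of these cell types was not tested.

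In Col5a1CKO wounds the members were not called between the days (0 of 8, none with an unadjusted p under 0.05 and none by DESeq2, edgeR adjusted p 0.744 to 0.974), while edgeR called 1.87% of all genes higher and 3.85% lower. DESeq2 called 2.7% of all genes higher and 5.97% lower. At day 19 the 3 Col5a1CKO wounds had Klk7 at 119.8 to 260.3 CPM, Klk14 at 10.60 to 59.00 CPM and Spink5 at 139.8 to 585.5 CPM, inside the wide ranges of day 14. All 8 members overlapped. Of all genes, 7.74% were higher and 9.86% lower with no overlap.

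The fibroblast-injected Col5a1CKO wounds were compared with Col5a1CKO wounds without fibroblasts and with WT wounds of day 14, and these comparisons share the injected wounds. Klk7 had 953.1, 828.9 and 694.0 CPM in injected replicates a to c. All 3 were above the 5 low Col5a1CKO wounds, below Col5a1CKO replicates d and g, and below each WT wound. Spink5 had 1041, 974.1 and 513.0 CPM, placed in the same way. Klk6 had 691.3, 566.4 and 748.2 CPM and Klk10 250.8, 387.6 and 194.1 CPM, above 6 of 7 WT wounds in each and below WT replicate g.

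Against Col5a1CKO wounds without fibroblasts, the log2 fold change was positive for 8 of 8 members, with a median of 1.19, but none was called (edgeR adjusted p 0.658 to 0.995, none with an unadjusted p under 0.05, none by DESeq2) and edgeR called 0.0% of all genes in either direction. DESeq2 called 0.047% of all genes higher and 0.0523% lower. All 8 members overlapped, beside 0.364% of genes higher and 1.7% lower with no overlap. Within the upper library set, where 2 Col5a1CKO wounds remain, 5 of 8 log2 fold changes were negative, from -0.03 for Klk10 to -0.75 for Spink5.

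Against WT, 2 of 8 members were called lower, Klk7 (log2 fold change -1.18, SE 0.27, adjusted p = 0.0237) and Spink5 (-2.002, SE 0.42, adjusted p = 0.0169), beside 2.06% of all genes called lower and 3.77% higher. The same 2 did not overlap, beside 10.1% of all genes lower and 10% higher. Klk10 (1.497, SE 0.87, adjusted p = 0.347) and Klk6 (0.86, SE 0.48, adjusted p = 0.325) had positive log2 fold changes. Leaving out any 1 of the 3 injected wounds left no member called. Within the upper set, Y-linked RNA was the higher in each WT wound and Xist in each injected wound, so sex and group cannot be told apart. There 5 members were called lower, beside 11.2% of all genes (19.8% higher). These were Klk5 (-2.21, SE 0.35, adjusted p = 0.00264), Klk7 (-1.30, SE 0.20, adjusted p = 0.00210), Klk8 (-1.66, SE 0.30, adjusted p = 0.00412), Klk11 (-1.51, SE 0.29, adjusted p = 0.00576) and Spink5 (-1.40, SE 0.30, adjusted p = 0.00867). When wounds of the same letter were paired as blocks, Klk10 (3.70, SE 0.28, adjusted p = 0.00190) and Klk6 (1.58, SE 0.27, adjusted p = 0.00807) were called higher and Klk7 and Spink5 lower, beside 9.98% and 11.8% of all genes. The labels state no such pairs. The WT wounds in that fit, a to c, were all of the lower set and the injected wounds all of the upper. The set and the injection thus cannot be told apart in it. Markers of differentiating keratinocytes summed to 5413 to 14810 CPM in injected wounds, below each WT wound, with 2 of 6 called lower than in WT and a median log2 fold change of -2.29. Of 5 leukocyte markers 3 were called higher (8163 to 10240 CPM in sum, 1321 to 9042 CPM in the WT group), as was 1 of 2 endothelial markers (198.5 to 328.6 and 42.58 to 169.4 CPM in sum). The part of these cell types was not tested.

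The second table compared vehicle and cilengitide. Klk7 had 1552, 1142, 1778 and 1586 CPM in WT vehicle replicates 1 to 4. In Col5a1CKO vehicle wounds it had 50.65, 3.535, 6.936 and 474.1 CPM. In cilengitide wounds it had 975.8, 1054, 1233 and 848.7 CPM. Each vehicle wound of Col5a1CKO was below each wound of the other groups, and replicate 4 stood well above the other 3. Spink5 had 133.4, 5.647, 17.36 and 1334 CPM in the Col5a1CKO vehicle wounds, 1413 to 2125 CPM in WT and 989.8 to 2107 CPM with cilengitide, so that Col5a1CKO vehicle replicate 4 lay within the cilengitide range. Klk5 had 1.246, 0.028, 0.086 and 54.13 CPM with Col5a1CKO vehicle, from 73, 2, 4 and 2469 counts. The WT wounds held 267.7 to 512.8 CPM and the cilengitide wounds 134.7 to 238.9 CPM, and the 3 groups did not overlap. Klk10 had 41.76, 1.408, 6.764 and 190.1 CPM with Col5a1CKO vehicle, 72.04 to 163.4 CPM in WT and 143.7 to 412.3 CPM with cilengitide, and replicate 4 was above each WT wound.

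Between Col5a1CKO and WT with vehicle, all 8 log2 fold changes were negative, with a median of -2.99, and none of the 8 was called (adjusted p 0.0688 to 0.619), beside 13.4% of all genes called lower and 17.5% higher. At an unadjusted p under 0.05 there were 3, Klk5, Klk7 and Klk8, DESeq2 called 1 lower (Klk5, beside 12.0% of all genes lower and 18.0% higher) and gave 4 members no adjusted p, and DESeq2 without its replacement and filter of outlying counts called 4 lower (beside 12.9% and 18.0%). The groups did not overlap for 5 members, all lower, beside 26.1% of all genes (23.4% higher). The log2 fold change was -4.88 for Klk5 (SE 2.04, adjusted p = 0.0808) and -0.77 for Klk10 (SE 1.20, adjusted p = 0.619). Without Col5a1CKO vehicle replicate 4, 7 of 8 members were called lower, beside 15.1% of all genes (18.6% higher). Among them were Klk5 (-9.76, SE 1.44, adjusted p = 0.00252), where the remaining wounds held 2 to 73 counts, Klk7 (-6.21, SE 1.10, adjusted p = 0.00465) and Spink5 (-5.18, SE 1.17, adjusted p = 0.0108). Klk10 was the member not called.

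Cilengitide wounds were compared with the same Col5a1CKO vehicle wounds. All 8 log2 fold changes were positive, with a median of 3.01, and none was called (adjusted p 0.0779 to 0.317), beside 6.48% of all genes called higher and 6.59% lower. Klk14 had an unadjusted p under 0.05 (log2 fold change 4.03, SE 1.46, adjusted p = 0.0779), DESeq2 called 1 member higher, Klk6, beside 6.67% of all genes, and gave 5 no adjusted p, and DESeq2 without outlier handling called 5 higher, beside 7.66%. For 6 of 8 members each cilengitide wound was above each vehicle wound, beside 18.9% of all genes (12.7% lower). Without Col5a1CKO vehicle replicate 4, all 8 members were called higher, beside 10.6% of all genes (6.87% lower), from 4.04 for Klk10 (SE 1.14, adjusted p = 0.0351) to 8.59 for Klk5 (SE 1.30, adjusted p = 0.00450).

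Against WT vehicle, the cilengitide wounds differed by member. Klk10 was called higher (log2 fold change 1.46, SE 0.37, adjusted p = 0.0326) and Klk5 lower (-1.18, SE 0.26, adjusted p = 0.0248), beside 5.15% and 3.43% of all genes. Klk11 passed the adjusted p but was under 2-fold (-0.62, SE 0.13, adjusted p = 0.0212), and Klk6 was at 1.13 (SE 0.34, adjusted p = 0.0506). Klk6 had 457.5, 700.7, 948.9 and 504.3 CPM with cilengitide and 449.5, 298.0, 301.2 and 154.9 CPM with WT vehicle, and each cilengitide wound was the higher. Of the 8 members 2 were higher and 2 lower with no overlap, beside 14.4% and 15.6% of all genes. Both calls were lost without WT replicate 3 or without any of cilengitide replicates 2, 3 and 4, and that of Klk10 also without WT replicate 1 or 4. Of all genes, 799 were called higher and 532 lower with all wounds. Without cilengitide replicate 2, 3 or 4, 3, 1 and 1 genes were called higher and 0 lower. Without WT replicate 3 it was 87 and 196, without replicate 1 715 and 619, and without replicate 4 287 and 268. The calls of Klk10 and Klk5 were lost as well at a 3-fold minimum and in one fit over all groups of the table, where 1.95% of all genes were called higher and 1.09% lower (adjusted p = 0.385 for Klk10 and 0.629 for Klk5).

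Keratinocyte markers moved with most members between the genotypes at day 14, in both tables, and between cilengitide and vehicle. Hair follicle markers did not always. All 5 had positive log2 fold changes (median 1.815) for WT day 19 against day 14, where all 8 members were negative. All 5 were negative (median -1.81) for fibroblast-injected against other Col5a1CKO wounds, where all 8 members were positive. The summed CPM of 5 basal keratinocyte markers at day 14 was 8797 to 47550 among WT and 23.24 to 23680 among Col5a1CKO wounds. It was 13210 to 22340 with WT vehicle, 71.4 to 10770 with Col5a1CKO vehicle and 17070 to 28460 with cilengitide. For 6 markers of differentiating keratinocytes it was 45680 to 88210 with WT vehicle, 27.77 to 1979 with Col5a1CKO vehicle and 17940 to 47510 with cilengitide. Of these 6, 5 were called lower with Col5a1CKO vehicle, among them Lor (loricrin, log2 fold change -8.48, SE 1.88, adjusted p = 0.00829), and 5 higher with cilengitide than with vehicle. All 6 were called lower with cilengitide than in WT, with a median of -1.57. Without cilengitide replicate 2, 3 or 4, 0 of all genes were called lower in that comparison, so these calls were lost. The 5 leukocyte markers summed to 193.0 to 2356 CPM with WT vehicle, 2222 to 44380 CPM with Col5a1CKO vehicle and 3425 to 7421 CPM with cilengitide. Between the genotypes at day 14 in the first table, 1 of 6 differentiating, 0 of 5 basal keratinocyte, 4 of 5 hair follicle and 0 of 3 sebaceous gland markers were called lower, and 3 of 5 leukocyte, 1 of 6 fibroblast and 2 of 2 endothelial markers higher. Of 3 muscle markers and 1 adipocyte marker tested none was called. The part of these cell types in the values of the kallikreins was not tested.

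Other genes of the shedding pathway were followed as lists. Among 6 proteases that act upstream or in parallel, 4 were called lower and 1 higher in Col5a1CKO than in WT vehicle wounds, with the largest changes in Casp14 (log2 fold change -5.69, SE 1.93, adjusted p = 0.0415), Prss8 (-4.42, SE 1.30, adjusted p = 0.0245) and St14, the membrane protease matriptase (-3.54, SE 0.96, adjusted p = 0.0179). Ctsl, a lysosomal cathepsin found in many cell types, was higher (1.74, SE 0.30, adjusted p = 0.00304). Among 7 other protease inhibitors 4 were called lower, the largest changes being in Cst6 (-5.55, SE 1.49, adjusted p = 0.0175), Serpina12 (-5.40, SE 1.79, adjusted p = 0.0384) and Spint2 (-3.40, SE 0.59, adjusted p = 0.00318). With cilengitide against vehicle, Spint2 (2.62, SE 0.58, adjusted p = 0.0184) and Spint1 (1.56, SE 0.31, adjusted p = 0.0134) were higher. Ctsl was lower with cilengitide than with vehicle (-1.07, SE 0.29, adjusted p = 0.0316). Serpina12 was lower at day 19 than at day 14 in WT (-2.63, SE 0.49, adjusted p = 0.0118) and in fibroblast-injected than in WT wounds (-2.63, SE 0.60, adjusted p = 0.0242). Between cilengitide and WT vehicle wounds the log2 fold changes of Prss8 (-1.10), Asprv1 (-1.44), Cst6 (-1.34) and Serpina12 (-1.53) were called lower, and Spink12, another inhibitor of the Spink family, higher (2.33, SE 0.58, adjusted p = 0.0318). Without cilengitide replicate 2, 3 or 4, that comparison had 3, 1 and 1 of all genes called higher and 0 lower.

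The substrates and targets list held 7 genes, of which 6 were tested in most comparisons. Cdsn, which encodes corneodesmosin, was called lower in Col5a1CKO than in WT vehicle wounds (-4.53, SE 1.51, adjusted p = 0.0385), and Camp, the cathelicidin precursor that neutrophils also make, was called higher (4.02, SE 1.43, adjusted p = 0.0484). In fibroblast-injected against WT wounds the desmosomal cadherins Dsg1a (-2.61, SE 0.33, adjusted p = 0.00163) and Dsc1 (-2.57, SE 0.33, adjusted p = 0.00171) were called lower. Between the days in WT, Dsc1 (-4.26, SE 0.43, adjusted p = 0.00184), Dsg1b (-3.56, SE 0.42, adjusted p = 0.00200) and Dsg1a (-3.52, SE 0.41, adjusted p = 0.00191) were lower at day 19. In the comparisons of Col5a1CKO with WT in the first table none of the 3 lists had a called gene. Of 6 further genes of the kallikrein cluster, Klk13 was called higher with cilengitide than with WT vehicle (1.08, SE 0.29, adjusted p = 0.0372) and Klk1, a tissue kallikrein, higher in Col5a1CKO than in WT vehicle wounds (3.69, SE 0.97, adjusted p = 0.0162), at 0.5481 to 2.403 CPM. Without cilengitide replicate 2, 3 or 4, cilengitide against WT vehicle had 3, 1 and 1 of all genes called higher.

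The members varied together across wounds. Over the 28 pairs of members, Pearson's r of log2(CPM + 1) was 0.57 to 0.988, with a median of 0.877, over the 23 libraries of the first table, and 0.785 to 0.995, with a median of 0.938, over the 12 of the second. These libraries share their groups and their content of epidermis, so r is a description. The genes most like the mean profile of the members in the first table were Rbp2 (r = 0.986), Klk9 (0.986), Ly6g6c (0.983), Cnfn (0.98) and Krt16 (0.98). In the second they were Rbp2 (0.997), Pglyrp3 (0.996), Dsg1b (0.995), Klk9 (0.994) and Gsdmc (0.994). Klk9 lies in the kallikrein cluster, Cnfn encodes cornifelin of the cornified layer, and Krt16 is a keratin that is raised in wounded epidermis.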

How the data were processed

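The 35 wounds were grouped by title and, for cilengitide, by treatment field. The authors deposited raw counts, from 50 bp reads aligned by HISAT2 to mm9 and counted in SeqMonk on RefSeq exons. For the cilengitide libraries the steps are not given in the sources used here. The row with most counts was kept per symbol in the first table, where 30 rows with no symbol (0.0226% to 0.0694% of counts) were dropped. The other table had 1 such row, also dropped. RPKM used the deposited lengths and the total over all rows.

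The test was edgeR's quasi-likelihood test (version 4.0.16, R 4.3.3) on the 2 groups compared. It used TMM, robust fits and genes kept by filterByExpr at min.count 10, with Benjamini-Hochberg adjustment over all genes. Simulated counts were run through it for fibroblast-injected against WT, WT day 19 against day 14 and cilengitide against WT. The other comparisons were not simulated. DESeq2 was 1.42.0. The study used DESeq2. Library sets were parted at the widest gap (1.541 log2) in the difference between genes in the upper and lower 10% by GC. Correlations across same-letter wounds, after removal of group means, were 0.139 to 0.441 for all 3 pairs of fibroblast-injected and WT wounds. By a rule of 0.1 the letters were taken as blocks there in an added fit only. The main test of that comparison was not paired, and the labels state no pairing. Of these 3 injected wounds, 2 were closest to the WT wound of their own letter. In the other comparisons at least 1 pair was under 0.1.

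The members, lists and named genes were chosen with earlier results of these data known. Named were the members, up to 3 called genes per list and comparison with the largest changes, and the 5 genes most like the members. Markers of 9 cell types were followed. Ratios are descriptions.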

Additional observations from a re-analysis of the deposited data

Results flagged for a closer look

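By Dixon's test within groups of 4 or 7 wounds, 18 of 40 gene and group pairs held a wound far from the others. Chance gives about 1 in 20 for normally spread values. The CPM were not on a log scale and spanned 3479 times for Klk10 among Col5a1CKO wounds at day 14. The 18 of 40 thus cannot be set against that rate. The members also move together, so these are not separate observations. Col5a1CKO replicate g at day 14 was far above the other Col5a1CKO wounds for Klk5 (381.2 CPM), Klk6 (972.4 CPM), Klk8 (473.3 CPM), Klk10 (599.1 CPM), Klk11 (157.5 CPM) and Klk14 (104.6 CPM). WT replicate g at day 14 was far above the other WT wounds for Klk6 (1026 CPM), Klk10 (404.8 CPM) and Klk14 (102.6 CPM).

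In the cilengitide experiment, Col5a1CKO vehicle replicate 4 was far above its group for Klk5 (54.13 CPM), Klk6 (260.8 CPM), Klk7 (474.1 CPM), Klk8 (166.9 CPM), Klk11 (31.33 CPM), Klk14 (8.506 CPM) and Spink5 (1334 CPM). WT vehicle replicate 2 was the highest of its group for Klk10 (163.4 CPM) and the lowest for Spink5 (1413 CPM). Why these wounds stand apart was not tested.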

How the results depend on the processing

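Under the other settings, 1304 log2 fold changes kept their direction and side of the threshold, 53 changed direction, 53 newly passed and 30 no longer passed. DESeq2 called 2 members at day 14, 1 with vehicle and 1 with cilengitide against vehicle, beside 4.85%, 12.0% and 6.67% of all genes called in the same direction, and without outlier handling, an alternative chosen after seeing the data, 1, 4 and 5, beside 4.8%, 12.9% and 7.66%. For fibroblast-injected against WT it called 3 members (4.97% of genes higher and 6.21% lower). For WT day 19 against day 14 it called 4 (3.93% and 6.94%), and for cilengitide against WT 3 (8.1% and 4.19%). Without outlier handling these were again 3, 4 and 3. Scaling by library size alone called 1 member lower with vehicle (14.7% of genes lower) and turned Klk6 at day 19 to -0.10 (log2 fold change). One fit over all groups called 4 members lower with vehicle (14.1% of genes lower) and 1 higher with cilengitide against vehicle (7.7% higher). It called 0 members for fibroblast-injected against WT (6.36% of genes higher and 6.05% lower), WT day 19 against day 14 (5.86% and 8.24%) and cilengitide against WT (1.95% and 1.09%). A 3-fold minimum called 1 member for fibroblast-injected against WT and 0 for cilengitide against WT, with no share over all genes counted at that minimum.

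With library set as a covariate, 5 members were called lower for fibroblast-injected against WT (6.67% of genes lower) and 7 for WT day 19 against day 14 (7.44%), as within the upper set (5 and 7). Fibroblast-injected against other Col5a1CKO wounds then turned to -0.46 (Klk5), -0.039 (Klk7), -0.016 (Klk8), -0.11 (Klk10), -0.18 (Klk11), -0.12 (Klk14) and -0.83 (Spink5), and within the upper set to -0.37 (Klk5), -0.034 (Klk10), -0.096 (Klk11), -0.042 (Klk14) and -0.75 (Spink5). Klk14 turned to 0.26 at day 14 within the upper set, and for Col5a1CKO day 19 against day 14 to -0.89 with the covariate and -0.79 within the set.

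With the replicate letter as a block, 4 members were called for fibroblast-injected against WT, where Klk11 turned to 0.38. The labels give a shared letter and no pairing in any comparison, and the other comparisons did not meet the rule of 0.1. There the block called 1 lower at day 14 (3.95% of genes lower; Klk10 turned to -2.07), 3 higher for fibroblast-injected against other Col5a1CKO wounds (9.33% higher) and 1 higher for Col5a1CKO day 19 against day 14 (6.62% higher), where values turned to 5.75 (Klk5), 3.57 (Klk6), 2.98 (Klk7), 3.21 (Klk8), 2.99 (Klk10), 5.55 (Klk11) and 2.41 (Spink5). For WT day 19 against day 14 the blocked values turned to 0.64 (Klk10) and 1.96 (Klk14), and 3 of 3 letters were closest to their own. Same-letter correlations ran from -0.438 to 0.563 at day 14. No paired analysis was possible for the cilengitide experiment because its labels give no shared numbers.

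Leaving out 1 wound in turn, members called ran from 0 to 2 at day 14, 0 to 2 for fibroblast-injected against WT, 1 to 3 for WT day 19 against day 14, 0 to 7 with vehicle, 0 to 8 for cilengitide against vehicle and 0 to 2 for cilengitide against WT. Of all genes, 494 to 928 were called higher and 191 to 984 lower in these fits at day 14. In the same order it was 207 to 650 and 73 to 371, then 16 to 273 and 74 to 789. With vehicle it was 2194 to 2917 and 1816 to 2378, and for cilengitide against vehicle 695 to 1674 and 334 to 1417. For cilengitide against WT it was 1 to 1192 and 0 to 619. The log2 fold changes of members that changed sign ran at day 14 from -1.46 to 1.05 (Klk10) and -4.04 to 0.70 (Klk14), and at day 19 from -0.10 to 0.55 (Klk6), -0.29 to 1.80 (Klk14) and -1.04 to 0.080 (Spink5). They ran from -0.19 to 0.86 (Spink5) for fibroblast-injected against other Col5a1CKO wounds and from -1.37 to 0.81 (Klk14) for WT day 19 against day 14. For Col5a1CKO day 19 against day 14 they ran from -1.33 to 1.60 (Klk5), -0.66 to 1.16 (Klk6), -1.16 to 0.16 (Klk7), -0.65 to 0.97 (Klk8), -1.62 to 0.98 (Klk10), -0.46 to 1.49 (Klk11) and -0.28 to 4.34 (Klk14). Leaving out wounds and the within-set fits were not run for the interaction. The cause was not tested for any of these changes.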
